A study of Arabidopsis thaliana with 8 samples.

Results

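The beta-glucosidases and glutathione transferases of Arabidopsis thaliana seed were followed through dry storage, imbibition and abscisic acid (ABA) treatment. Members were the probe sets that the platform annotation paired with 1 gene symbol beginning with BGLU, or with GST and a class letter U, F, Z, T or L, followed by a number. The rule found 33 of the 22810 probe sets on the array, 20 of them beta-glucosidases and 13 glutathione transferases. Of the latter, 11 were tau class, 1 phi class (GSTF4) and 1 lambda class (GSTL3), and no zeta or theta probe set carried such a symbol. RefSeq gave a symbol or synonym of the same form to 47 BGLU loci and 48 GST loci, so the members cover a portion of each family. The rule reads gene names and no measured value, although it was written with earlier results of these data known.

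Total RNA of Col-0 seed was labelled with biotin and hybridised to 8 one-colour expression arrays. There were 4 groups of 2 arrays, named replicates A and B: untreated dry seed, and seed soaked for 24 h in water alone, in 3 µM ABA or in 30 µM ABA. The labels name no mutant or transgene, and each sample was bulk seed of the same accession, so fewer cells of a type and less transcript per cell cannot be told apart. The 3 µM arrays carry different numbers (3 and 5) in their titles, unlike the arrays of the other groups, and no label says whether replicates were separate lots of seed. The p-values therefore measure the spread between these arrays, which may be technical.

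Beta-glucosidases of glycoside hydrolase family 1 cut glucose from small glucosides and so release hormones, lignin precursors, coumarins and defence compounds from stored forms. One clade of them fills the ER bodies of Brassicaceae, which are compartments derived from the endoplasmic reticulum. Glutathione transferases join the tripeptide glutathione to reactive or foreign molecules or act as thiol transferases and binding proteins, and the tau class is found in plants. ABA is the hormone that maintains seed dormancy, and its glucose ester is an inactive storage form that beta-glucosidases can hydrolyse.

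Values are signal intensities, deposited on a linear scale with each array brought to a common trimmed mean. A signal has meaning within a probe set, and levels of different genes are not ranked by it here. Words such as dim place a signal in the range of the array, and summed markers are weighted to their brightest probe sets. Median signals were 21.4 and 21.0 in dry seed and 30.9 to 33.8 in imbibed seed. Replicate arrays correlated at 0.971 to 0.985 across probe sets. Imbibed arrays of different groups correlated about as closely, at 0.973 to 0.983. Differences are in log2(signal + 3.99), with the standard error of a single limma fit over all 8 arrays, and adjusted p is the Benjamini-Hochberg value over the 15922 probe sets that passed a filter on low values. A member was called when adjusted p was under 0.05. The filter kept 9 of 20 beta-glucosidases and 7 of 13 glutathione transferases, and the other 17 members, too dim on average, are described by their signals.

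Seed identity was checked against storage markers. The summed signal of the 5 named storage probe sets was 10363 and 7095 on dry arrays, 1070 and 1202 on water arrays, 1388 and 1903 on 3 µM arrays and 2249 and 2411 on 30 µM arrays. It was highest in dry seed and higher in either ABA group than in water. The seed coat marker BAN stayed at or below 9.56 on every array, and no endosperm or root marker of the lists had a named probe set. The 3 pollen markers summed to 136 and 117 in dry seed and to 36.6 to 46.9 on the imbibed arrays. Most of that sum was AGL18, at 106 and 95.8 in dry seed and 29.2 to 39.6 on the imbibed arrays. MGH3 was also higher in dry seed than in water, whereas AT1G29140 overlapped between them. Of the 2 green leaf markers, RCA was higher in water than in dry seed (log2 2.64) and LHCB4.2 was lower (log2 -2.17). Of 6 ratios of 3' to 5' control probe sets, a sign of RNA quality, 2 separated dry from imbibed seed without overlap. The ratio for actin was 4.34 and 4.52 in dry seed and 2.30 to 3.80 in imbibed seed, and that for one GAPDH pair was 1.81 and 1.69 against 0.371 to 0.927. The part of these markers and ratios in the differences between dry and imbibed seed below was not tested.

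Among beta-glucosidases, BGLU19 was lower and BGLU40, BGLU42 and BGLU44 were higher after imbibition in water. In limma's fit 3 kept members were higher in water than in dry seed, 1 was lower and 5 were not called. The background was high: 37.5% of all tested probe sets were called higher and 28.5% lower in the same comparison. The median difference was 0.28 over the 9 kept beta-glucosidases and 0.07 over all 20, against 0.15 over all tested probe sets and 0.01 over all non-control probe sets.

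BGLU19 (AT3G21370, chromosome 3) belongs to the clade of ER-type enzymes, BGLU18 to BGLU25. Its signal was 3088 and 987 on dry arrays, 179 and 319 on water arrays, 329 and 575 on 3 µM arrays and 718 and 876 on 30 µM arrays. The dry arrays were the highest and the water arrays the lowest, with both ABA groups in between, and the arrays in water overlapped neither those in dry seed nor those in either ABA dose. The water group was lower than dry seed by a log2 difference of -2.85 ± 0.47 (SE, adjusted p = 0.000347 in limma). The 2 dry arrays themselves differed widely, so the size of this difference rests on few values. In each imbibed group replicate B lay above replicate A, while in dry seed replicate A was the higher.

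BGLU25 (AT3G03640), of the same clade, had another pattern. Its signal was 135 and 104 on dry arrays, 149 and 315 on water arrays, 151 and 387 on 3 µM arrays and 245 and 400 on 30 µM arrays. Every imbibed array lay above both dry arrays, but the replicates B of the imbibed groups lay far above the replicates A. The log2 difference between water and dry seed was 0.85 ± 0.44 and was not called (adjusted p = 0.113 in limma). The difference was 1.38 and called without water replicate A (adjusted p = 0.0339 in limma), and 0.32 and not called without water replicate B (adjusted p = 0.594 in limma). With the letters A and B as a replicate block it was called at the same size (adjusted p = 0.0413 in limma), and over all alternatives the adjusted p ran from 2.53e-06 to 0.594. BGLU24, another gene of the clade, stayed between 0.821 and 6.73 on all arrays and was not tested.

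Some genes of that clade fell outside the rule on symbols and were examined beside it. PYK10, listed as BGLU23 in RefSeq and the main beta-glucosidase of seedling ER bodies, had signals of 12.3 and 23.3 on dry arrays, 1854 and 1196 on water arrays, 1237 and 1400 on 3 µM arrays and 1423 and 1164 on 30 µM arrays. Every imbibed array lay far above both dry arrays. The log2 difference between water and dry seed was 6.15 ± 0.27 (adjusted p = 5.26e-08 in limma). A probe set shared by BGLU21 and BGLU22, which hydrolyse the coumarin glucoside scopolin in roots, read 8.86 and 3.18 on dry arrays, 91.4 and 274 on water arrays, 55.0 and 87.7 on 3 µM arrays and 27.5 and 76.3 on 30 µM arrays. It was higher in water than in dry seed by 4.09 ± 0.54 (adjusted p = 7.38e-05 in limma), and its signal cannot be divided between the genes. In each imbibed group its replicate B lay above its replicate A. Its dry mean lay below the filter, so it was tested through its imbibed arrays and a difference from dry seed was built in. ATA27, listed as BGLU20, was at or below 1.74 on all arrays.

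NAI1 and NAI2, a transcription factor and a structural component needed to form ER bodies, were both higher in water than in dry seed. NAI2 had signals of 9.94 and 15.4 before imbibition and 711 and 1072 after it in water, a log2 difference of 5.74 ± 0.26 (adjusted p = 6.34e-08 in limma). NAI1 had signals of 1.53 and 6.98 before and 99.8 and 99.2 after, a difference of 3.73 ± 0.29 (adjusted p = 1.55e-06 in limma). Both dry values of NAI1 lay below the filter, so the same limit holds for it. Within this small group BGLU19 was thus lower after imbibition and PYK10, the BGLU21 and BGLU22 probe set, NAI1 and NAI2 were higher. Of the 7 listed ER body proteins only NAI1 and NAI2 had a named probe set.

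**Figure D1:**
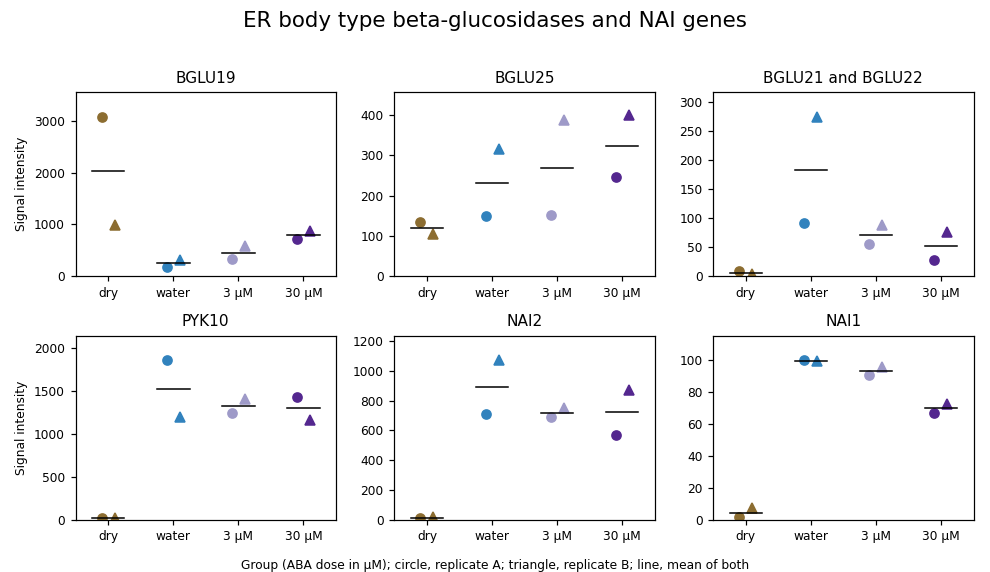
Signal intensity (vertical axis, linear, 1 scale per panel) of BGLU19, BGLU25, the probe set shared by BGLU21 and BGLU22, PYK10, NAI2 and NAI1 in the 4 groups, with a circle for replicate A, a triangle for replicate B and a line at their mean. BGLU19 is highest in dry seed at 3088 and 987, whereas PYK10 is at 12.3 and 23.3 in dry seed and at 1164 or more on every imbibed array.

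The clade of BGLU40 to BGLU44 held the 3 members called higher in water. BGLU44 (AT3G18080), for which beta-mannosidase activity has been shown, had signals of 100.5 and 159 on dry arrays, 537 and 507 on water arrays, 579 and 586 on 3 µM arrays and 566 and 587 on 30 µM arrays. The 6 imbibed arrays lay close together and far above the dry ones. Water exceeded dry seed by 2.01 ± 0.20 on the log2 scale (adjusted p = 9.85e-06 in limma).

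BGLU42 (AT5G36890), known from iron-deficient roots and the release of coumarins, had signals of 38.8 and 40.3 on dry arrays, 115 and 116 on water arrays, 142 and 107 on 3 µM arrays and 119 and 105 on 30 µM arrays. Its dry and water replicates agreed closely, and every imbibed array lay above the dry ones. The log2 difference between water and dry seed was 1.46 ± 0.19 (adjusted p = 5.45e-05 in limma). BGLU40 (AT1G26560) had signals of 6.80 and 8.61 on dry arrays, 43.8 and 34.5 on water arrays, 42.4 and 23.6 on 3 µM arrays and 23.0 and 21.2 on 30 µM arrays. It rose by 1.88 ± 0.29 on the log2 scale in water (adjusted p = 0.000234 in limma), and its 30 µM arrays lay between those of dry seed and water.

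The other members of the clade did not pass the filter. BGLU43 lies directly beside BGLU44 on chromosome 3, and its signal stayed between 0.177 and 1.96 on all arrays while that of BGLU44 rose. BGLU41 read 7.36 and 9.19 on dry arrays, 4.44 and 5.89 on water arrays, 7.98 and 9.65 on 3 µM arrays and 5.77 and 4.10 on 30 µM arrays. Of the 5 clade members 3 were tested, and all 3 were called higher in water, in a comparison where 37.5% of tested probe sets were.

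BGLU15 and BGLU16 represent the clade of BGLU12 to BGLU17. BGLU15, which hydrolyses flavonol glycosides, had signals of 10.3 and 5.80 on dry arrays, 8.58 and 6.91 on water arrays, 14.1 and 20.4 on 3 µM arrays and 12.2 and 9.79 on 30 µM arrays. Dry seed and water overlapped, the 3 µM arrays were the highest, and the log2 difference between water and dry seed was -0.01 ± 0.33 (adjusted p = 0.976 in limma). BGLU16 had signals of 18.6 and 21.2 in dry seed and 9.40 to 17.9 on the imbibed arrays. Every imbibed array lay below the dry ones, with a log2 difference of -0.48 ± 0.32 in water (adjusted p = 0.216 in limma). That difference was called under quantile normalization and under a common median.

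The atypical myrosinase clade, BGLU26 to BGLU33, was dim throughout. Only BGLU28, a glucosidase of glucosinolate breakdown under sulfur shortage, passed the filter. Its signal was 10.2 and 6.89 on dry arrays, 11.5 and 10.1 on water arrays, 9.78 and 14.3 on 3 µM arrays and 17.5 and 15.5 on 30 µM arrays. The 30 µM arrays were the highest, and the difference between water and dry seed was 0.25 ± 0.30 (adjusted p = 0.498 in limma).

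BGLU33 (AT2G32860) is a vacuolar enzyme that releases ABA from its glucose ester, and it was the single gene of that role with a named probe set. Its signal was 0.714 and 1.09 on dry arrays, 0.971 and 1.09 on water arrays, 2.50 and 6.43 on 3 µM arrays and 3.26 and 1.26 on 30 µM arrays. All of these lay below the filter, which corresponds to a signal of 7.49. Both ABA groups lay above water, but at this brightness such a difference was not tested in the main fit, and without the filter it was not called at either dose (log2 0.30 ± 0.30 at 30 µM and 0.71 ± 0.30 at 3 µM, adjusted p = 0.948 and 0.996 in limma). BGLU27 stayed between 1.90 and 10.1, BGLU29 between 0.682 and 8.59, BGLU31 between 0.178 and 1.97, and BGLU32 between 0.124 and 5.32. BGLU36, the single member of the classical myrosinase clade found, stayed between 0.213 and 5.32.

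The monolignol glucosidases, which free lignin precursors from their glucosides, were dim in seed as well. BGLU45 read 8.77 and 13.7 on dry arrays, 6.20 and 3.20 on water arrays, 5.45 and 6.17 on 3 µM arrays and 4.37 and 2.91 on 30 µM arrays, so that both dry arrays lay above all others. It did not pass the filter. Its neighbour BGLU46 read from 0.466 to 9.46, with both 30 µM arrays below the water arrays and dry seed overlapping either. BGLU47 read from 4.37 to 15.4 with overlapping groups, passed the filter and was not called in water against dry seed (log2 0.28 ± 0.43, adjusted p = 0.589 in limma).

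**Figure D2:**
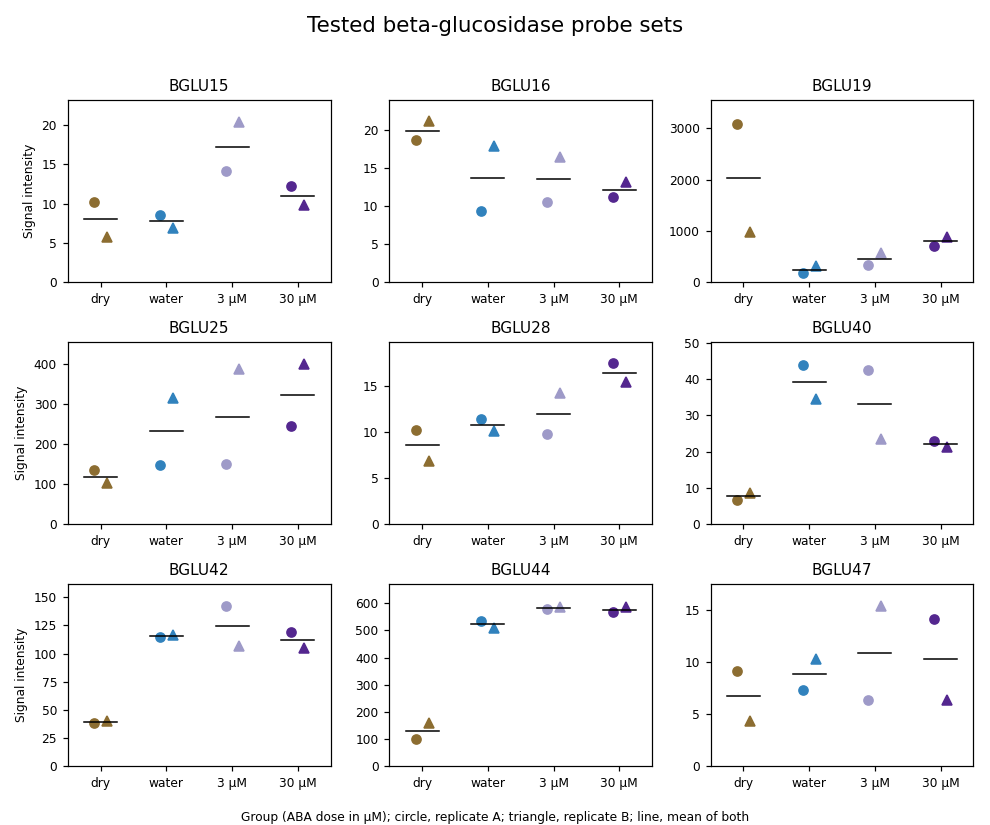
Signal intensity (vertical axis, linear, starting at 0, 1 scale per panel) of the 9 tested beta-glucosidases in dry seed, water, 3 µM ABA and 30 µM ABA, with a circle for replicate A, a triangle for replicate B and a line at their mean. BGLU19 is highest in dry seed, BGLU40, BGLU42 and BGLU44 are lowest there, and in BGLU25 the replicates B of the imbibed groups lie above the replicates A.

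Among glutathione transferases, GSTU20, GSTU27, GSTL3 and GSTU26 were higher and GSTU16 and GSTU28 lower after imbibition in water. In limma's fit 4 kept members were higher in water than in dry seed, 2 were lower and 1, GSTU22, was not called. The background percentages are those given above for beta-glucosidases. The median difference was 0.79 over the 7 kept members and 0.24 over all 13, against 0.15 over all tested probe sets and 0.01 over all non-control probe sets. The dry means of GSTU20, GSTU27 and GSTU22 lay below the filter, and so did the water mean of GSTU28. The median over kept members thus depends on the filter.

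GSTU20 (AT1G78370, chromosome 1), which interacts with the jasmonate-conjugating enzyme FIN219 in far-red light signalling, had the greatest difference among the tested members. Its signal was 0.862 and 1.75 on dry arrays, 108 and 103 on water arrays, 71.4 and 105 on 3 µM arrays and 97.7 and 119 on 30 µM arrays. It went from the bottom of the signal range in dry seed to about the same signal in every imbibed group. The log2 difference between water and dry seed was 4.38 ± 0.23 (adjusted p = 1.50e-07 in limma). GSTU20 passed the filter through its imbibed arrays alone, as did GSTU27, so a difference from dry seed was built into their being tested.

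GSTU20 lies in a run of neighbouring tau genes on chromosome 1, and the other members of the run showed no difference of that size. GSTU21 read 0.540 and 2.19 on dry arrays, 0.662 and 4.35 on water arrays, 2.56 and 9.33 on 3 µM arrays and 8.36 and 8.68 on 30 µM arrays, below the filter. Its 30 µM arrays lay above those of water and dry seed. GSTU22 passed the filter with 7.01 and 6.63 on dry arrays, 4.41 and 24.5 on water arrays, 3.40 and 18.6 on 3 µM arrays and 8.41 and 14.1 on 30 µM arrays. Its imbibed replicates B lay above the replicates A in all 3 imbibed groups, and the difference between water and dry seed was 0.52 ± 0.62 (adjusted p = 0.484 in limma). GSTU23 stayed between 1.15 and 12.1, with dry seed and water overlapping. The log2 differences between water and dry seed across the run were thus -0.35 for GSTU23, 0.52 for GSTU22, 0.24 for GSTU21 and 4.38 for GSTU20. Whether probes of these related genes also bind each other's transcripts was not tested.

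GSTU27 (AT3G43800) had signals of 1.92 and 11.2 on dry arrays, 89.8 and 70.0 on water arrays, 65.5 and 54.3 on 3 µM arrays and 64.0 and 47.8 on 30 µM arrays. Dry seed was lowest and water highest, with the ABA arrays below both water arrays. The log2 difference between water and dry seed was 3.14 ± 0.38 (adjusted p = 3.81e-05 in limma).

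GSTL3 (AT5G02790) is a lambda class enzyme, a class that carries a catalytic cysteine and acts as a thiol transferase. Its signal was 7.90 and 12.0 on dry arrays, 38.5 and 38.8 on water arrays, 26.4 and 26.8 on 3 µM arrays and 24.6 and 36.1 on 30 µM arrays. All 4 ABA arrays lay below the water arrays and above the dry ones. Water exceeded dry seed by 1.63 ± 0.26 on the log2 scale (adjusted p = 0.000290 in limma).

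GSTU26 (AT1G17190) had signals of 43.7 and 28.7 on dry arrays, 59.0 and 70.0 on water arrays, 63.2 and 64.0 on 3 µM arrays and 41.7 and 57.0 on 30 µM arrays. The log2 difference between water and dry seed was 0.79 ± 0.24 (adjusted p = 0.0142 in limma). This call was lost without dry replicate B (log2 0.52) and without water replicate B (log2 0.67). It was lost as well under quantile normalization (log2 0.43) and a common median (log2 0.29), and the adjusted p of its alternatives ran from 4.61e-05 to 0.299. Its neighbour GSTU25, an enzyme that detoxifies the explosive trinitrotoluene, read 0.436 and 0.184 on dry arrays, 7.91 and 30.8 on water arrays, 6.62 and 13.0 on 3 µM arrays and 6.92 and 9.74 on 30 µM arrays. All imbibed arrays lay above the dry ones, and although GSTU25 missed the filter, the fit without it gave 2.24 ± 0.49 (adjusted p = 0.00412 in limma) for water against dry seed.

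The transferases that fell were GSTU16 and GSTU28. GSTU16 (AT1G59700) had signals of 267 and 210 on dry arrays, 64.8 and 66.4 on water arrays, 51.0 and 63.9 on 3 µM arrays and 57.0 and 69.4 on 30 µM arrays. The imbibed arrays lay close together, and water was below dry seed by a log2 difference of -1.79 ± 0.20 (adjusted p = 1.91e-05 in limma). GSTU28 (AT1G53680) had signals of 60.0 and 38.2 on dry arrays, 3.36 and 1.43 on water arrays, 11.4 and 15.2 on 3 µM arrays and 10.8 and 7.92 on 30 µM arrays. Like BGLU19 it was highest in dry seed and lowest in water, and its arrays in water overlapped none of the other groups. The log2 difference between water and dry seed was -3.04 ± 0.33 (adjusted p = 1.64e-05 in limma). Its water arrays lay below the filter, so GSTU28 was tested through its other groups.

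The remaining transferases were dim. GSTU15 read 7.94 and 10.3 in dry seed and 0.295 to 3.39 on the imbibed arrays, below the filter, and the fit without the filter gave -1.21 ± 0.31 (adjusted p = 0.00947 in limma) for water against dry seed. GSTU18 stayed between 1.30 and 15.3, and GSTF4, the single phi class member, between 0.160 and 7.95, with overlapping groups. ATGSTF13, a phi class probe set outside the rule on symbols, was not called in water against dry seed (log2 0.77 ± 0.42, adjusted p = 0.130 in limma).

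**Figure D3:**
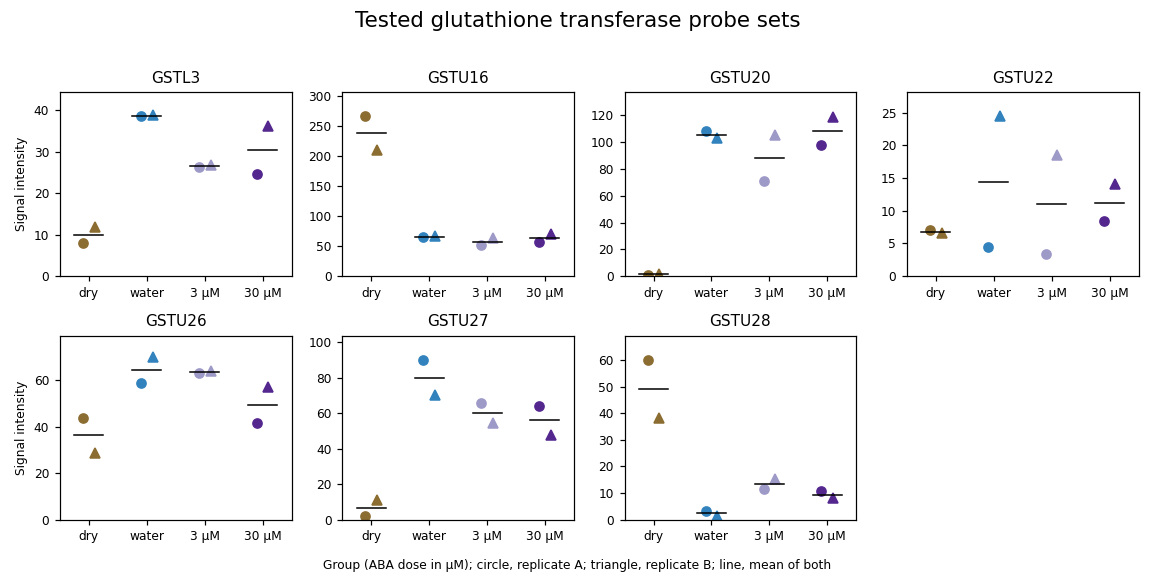
Signal intensity (vertical axis, linear, starting at 0, 1 scale per panel) of the 7 tested glutathione transferases in dry seed, water, 3 µM ABA and 30 µM ABA, with a circle for replicate A, a triangle for replicate B and a line at their mean. GSTU20, GSTU27 and GSTL3 are lowest in dry seed, GSTU16 and GSTU28 are highest there, and GSTU28 is lowest in water at 3.36 and 1.43.

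**Figure D4:**
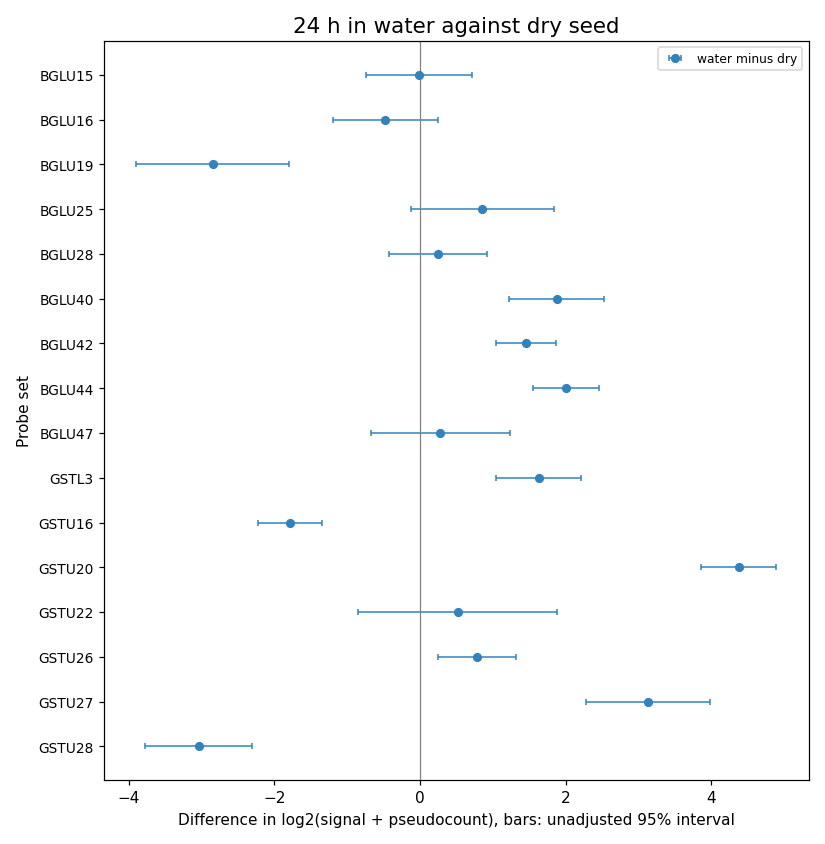
Difference between water and dry seed in log2(signal + 3.99) (horizontal axis) for the 16 tested members (vertical axis), with a point for the limma estimate and a bar for its unadjusted 95% interval. GSTU20 lies farthest to the right at 4.38 and GSTU28 and BGLU19 farthest to the left at -3.04 and -2.85.

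Genes that make the substrates and cofactors of these enzymes were examined from lists chosen by function. Of the 3 glucosyltransferases of ABA that passed the filter, all were lower in water than in dry seed, namely UGT71C5 (log2 -0.85 ± 0.23, adjusted p = 0.00775), AT3G21790, known as UGT71B7 (-1.02 ± 0.19, adjusted p = 0.000877), and UGT71B8 (-0.91 ± 0.35, adjusted p = 0.0391 in limma). The background for a lower call in that comparison was 28.5% of all tested probe sets, as given above. UGT71B6, which glucosylates ABA, did not pass the filter with 7.84 and 15.9 in dry seed and at most 1.34 on the imbibed arrays. The UGT71C5 call was lost without dry replicate B (log2 -0.61) or water replicate A (log2 -0.71), and scaling to spike-in controls moved it to 0.0050. That scaling also ended the calls of AT3G21790 (log2 -0.15) and UGT71B8 (log2 -0.23), so none of the 3 was called lower under it. Geometric means of these controls (bioB, bioC, bioD and cre) were 339 and 363 on dry arrays and 128 to 247 on imbibed arrays. Whether the controls track the amount of messenger RNA was not tested. The water signals of UGT71B8, 7.46 and 7.24, and its 3 µM signals, 6.66 and 4.22, lay below the filter. It was thus tested through its dry and 30 µM arrays, and a lower value in water was partly built in. The UGT71B8 call held in 9 of 16 alternatives. It was lost without the filter (log2 -0.91). It was also lost without dry replicate B (log2 -0.57), water replicate A (-0.92), water replicate B (-0.89) or either 30 µM array (-0.91).

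UGT72E1, which glucosylates lignin precursor aldehydes, fell from 659 and 627 to 32.3 and 50.4 in water, a log2 difference of -3.86 ± 0.21 (adjusted p = 1.63e-07 in limma). UGT72E2, a monolignol glucosyltransferase, was higher in water by 0.74 ± 0.28 (adjusted p = 0.0359 in limma). That call held in 10 of 17 alternatives. It was lost under quantile normalization (log2 0.27), under a common median (0.24) and without the filter (0.74). It was also lost without dry replicate B (log2 0.61), water replicate B (0.39) or either 30 µM array (0.74). Of the genes of glutathione synthesis and recycling, 2 of 10 listed had a named probe set. The glutathione reductase GR1 read 227 and 237 before imbibition and 451 and 546 after it in water, a difference of 1.08 ± 0.16 (adjusted p = 0.000176 in limma). The organellar reductase GR was not called (log2 -0.28 ± 0.17, adjusted p = 0.171 in limma).

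The question of the ABA arms was whether the hormone moved these genes away from their level in water. No member of either family was called between 30 µM ABA and water, between 3 µM ABA and water, or between the doses. Over all tested probe sets 0.452% were called in 30 µM ABA against water, 0% in 3 µM ABA against water and 0% between the doses, so few calls were made anywhere. At an unadjusted p under 0.05, limma's fit gave 2 beta-glucosidases and 1 transferase for 30 µM ABA, 1 and 1 for 3 µM ABA, and 0 and 0 between the doses. Over all 15922 tested probe sets the counts at that level were 1350, 635 and 513, where 796 would be reached by chance, so the counts for 3 µM ABA and between the doses lay below chance. A permutation test over 2 arrays against 2 cannot go below p = 0.333, so no other test was added. These comparisons share the water arrays with the comparison of water and dry seed.

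BGLU19 had the smallest p among beta-glucosidases in 30 µM ABA. Its arrays in 30 µM ABA, 718 and 876, lay above those in water, 179 and 319, by 1.71 ± 0.47 on the log2 scale (unadjusted 95% interval 0.66 to 2.76, adjusted p = 0.230 in limma). In 3 µM ABA the difference was 0.85 ± 0.47 (95% interval -0.20 to 1.90, adjusted p = 0.999 in limma). It was called in 30 µM ABA only when arrays were scaled to spike-in controls (log2 1.51), and the adjusted p of its alternatives ran from 0.00602 to 0.873. Against dry seed BGLU19 remained lower in 3 µM ABA (-2.00, adjusted p = 0.00363 in limma), while in 30 µM ABA the difference of -1.14 was not called (adjusted p = 0.0572 in limma). That difference was -1.96 and called without dry replicate B (adjusted p = 0.00169 in limma), and -0.32 and not called without dry replicate A (adjusted p = 0.509 in limma). Those adjusted p-values were the lowest and highest of its alternatives, and the size of the difference rests on which dry array is used.

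BGLU40 lay on the other side of water. Its 30 µM arrays were both below the water arrays, by a log2 difference of -0.72 ± 0.29 (95% interval -1.37 to -0.06, adjusted p = 0.526 in limma), while at 3 µM the arrays overlapped. In 3 µM ABA BGLU15 came first, above water by 0.84 ± 0.33 (95% interval 0.12 to 1.57, adjusted p = 0.999 in limma). Its 3 µM signals of 14.1 and 20.4 exceeded all others, and at 30 µM the difference was 0.35 (95% interval -0.38 to 1.08).

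GSTU28 had the smallest p among transferases at both doses. It exceeded water by 1.07 ± 0.33 in 30 µM ABA (95% interval 0.34 to 1.81, adjusted p = 0.301 in limma) and by 1.44 ± 0.33 in 3 µM ABA (95% interval 0.71 to 2.18, adjusted p = 0.999 in limma). All 4 ABA arrays, at 7.92 to 15.2, lay above the water arrays at 1.43 and 3.36 and below the dry arrays at 38.2 and 60.0. The water signals lay below the filter, so GSTU28 was tested through its other groups and a higher value in ABA was partly built in. They also lay below the pseudocount of 3.99, so these log2 differences depend on it. The next transferases were GSTU26 in 30 µM ABA (-0.37 ± 0.24, adjusted p = 0.784 in limma) and GSTL3 in 3 µM ABA (-0.48 ± 0.26, adjusted p = 0.999 in limma), neither of which was called.

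BGLU19, like the summed storage markers, was highest in dry seed and lowest in water, with 30 µM ABA above 3 µM ABA. GSTU28 was also highest in dry seed and lowest in water, but its 30 µM arrays (10.8 and 7.92) lay below its 3 µM arrays (11.4 and 15.2). The storage sum was 1070 and 1202 in water and 2249 and 2411 in 30 µM ABA, and 2 of its 5 probe sets were called higher in 30 µM ABA than in water. Of the 6 control ratios, 2 separated water from 30 µM ABA without overlap. The ratio for actin was 2.94 and 3.80 in water and 2.69 and 2.30 in 30 µM ABA, and that for another GAPDH pair was 1.31 and 1.05 in water and 0.956 and 0.974 in 30 µM ABA. The part of either in the differences of BGLU19 and GSTU28 was not tested.

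The intervals show what the data leave possible for members that were not called. For BGLU42 the 95% interval of 30 µM ABA minus water ran from -0.46 to 0.37, for BGLU44 from -0.31 to 0.59, for GSTU16 from -0.50 to 0.38 and for GSTU20 from -0.49 to 0.55. These were the narrowest intervals of the 16 tested members. For GSTU22 the interval ran from -1.42 to 1.33 and for BGLU25 from -0.46 to 1.50, wide enough to hold a log2 difference of 1 in either direction for GSTU22 and upwards for BGLU25.

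**Figure D5:**
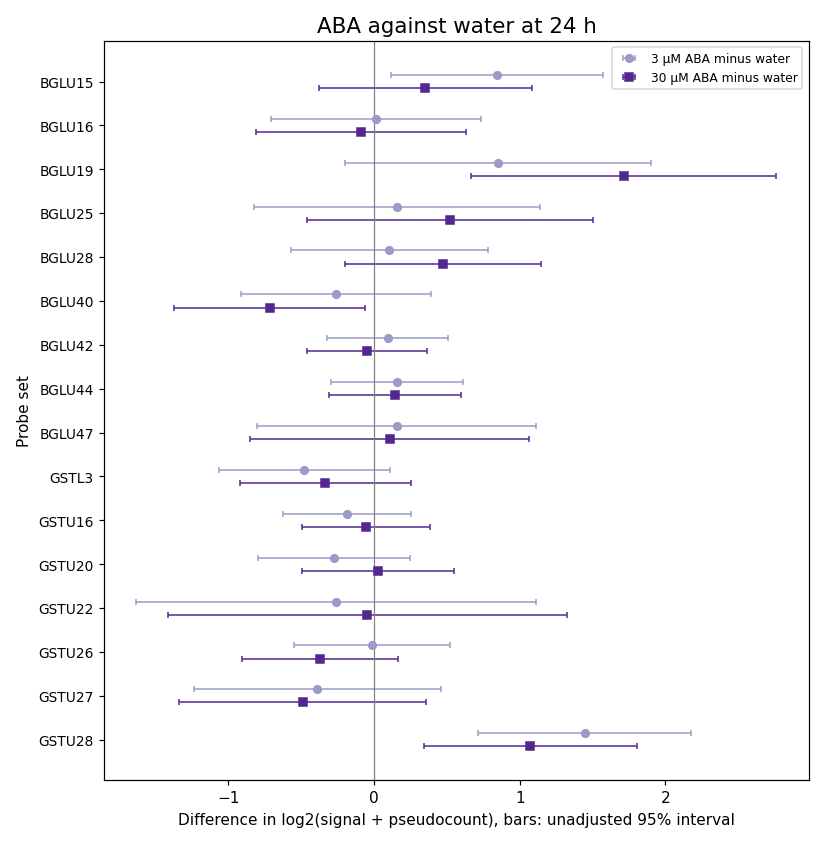
Difference from water in log2(signal + 3.99) (horizontal axis) for the 16 tested members (vertical axis) in 3 µM ABA (circles) and 30 µM ABA (squares), with bars for unadjusted 95% intervals of limma's fit. Most intervals cross 0, and those of BGLU19 and BGLU40 at 30 µM, BGLU15 at 3 µM and GSTU28 at both doses do not, although none was called after adjustment. GSTU28 lay below the filter in water, so its higher values in ABA were partly built in.

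Counted over all members, dim ones included, 7 of 20 beta-glucosidases had both 30 µM arrays above both water arrays and 3 had both below. In 3 µM ABA these counts were 6 and 3. Of the 13 transferases, 2 lay above and 3 below in 30 µM ABA, and 1 above and 3 below in 3 µM ABA. Over all non-control probe sets 20.5% lay above and 18.7% below in 30 µM ABA, and 21.2% above and 11.0% below in 3 µM ABA. The median difference in 30 µM ABA was 0.09 over all beta-glucosidases, -0.18 over all transferases and 0.01 over all probe sets.

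ABA-imbibed seed was also compared with dry seed, with values in water given beside them. In 30 µM ABA 4 beta-glucosidases were called higher than in dry seed (BGLU25, BGLU40, BGLU42 and BGLU44) and 0 lower, and 3 transferases higher (GSTL3, GSTU20 and GSTU27) and 2 lower (GSTU16 and GSTU28). The background was 36.7% higher and 26.0% lower. In 3 µM ABA 4 beta-glucosidases were higher (BGLU15, BGLU40, BGLU42 and BGLU44) and 1 lower (BGLU19), and 4 transferases higher (GSTL3, GSTU20, GSTU26 and GSTU27) and 2 lower (GSTU16 and GSTU28). The background there was 37.9% higher and 26.7% lower. The 3 comparisons share the dry arrays.

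The log2 differences between 30 µM ABA and dry seed were 2.15 for BGLU44, 1.41 for BGLU42 and 1.16 for BGLU40, against 2.01, 1.46 and 1.88 in water. Among transferases they were 4.41 for GSTU20, 2.65 for GSTU27 and 1.30 for GSTL3, against 4.38, 3.14 and 1.63 in water. GSTU16 differed by -1.85 and GSTU28 by -1.97, against -1.79 and -3.04 in water. BGLU25 exceeded dry seed by 1.38 ± 0.44 in 30 µM ABA (adjusted p = 0.0194 in limma). That call was lost without dry replicate B (log2 1.19), without 30 µM replicate B (log2 1.03) and under a common median (log2 0.82). The BGLU40 call in 30 µM ABA was lost under a common median too (log2 0.60).

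In 3 µM ABA, BGLU15 exceeded dry seed by 0.83 ± 0.33 (adjusted p = 0.0456 in limma), and this call held in 4 of 16 alternatives, with log2 values from 0.28 to 1.64. GSTU26 exceeded dry seed by 0.77 ± 0.24 in 3 µM ABA (adjusted p = 0.0158 in limma), and 12 of 17 alternatives kept the call. It was lost under quantile normalization (log2 0.38) and under a common median (log2 0.22). It was also lost without dry replicate B (log2 0.50), 3 µM replicate A (log2 0.78) or 3 µM replicate B (log2 0.77). Against dry seed, the 3 µM call of GSTL3 was lost under a common median (log2 0.60). That of GSTU28 was lost with spike-in scaling (log2 -0.59). PYK10 exceeded dry seed by 5.94 in 30 µM ABA and 5.97 in 3 µM ABA (adjusted p = 8.44e-08 and 7.16e-08 in limma). The probe set of BGLU21 and BGLU22 exceeded it by 2.39 and 2.94 (adjusted p = 0.00305 and 0.000778 in limma). Its signals were lower in both ABA doses than in water, with 30 µM minus water at -1.69 ± 0.54 (adjusted p = 0.338 in limma), which was not called.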

How the data were processed

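The authors deposited 1 signal intensity per probe set and array on a linear scale with MAS5, per the submitters' processing notes, which give no version. The 2% trimmed mean of each array lay between 100.007 and 100.009, so a change in the total amount of messenger RNA on imbibition cannot be seen. No detection calls were used, and the number of arrays limits the precision. From the deposited intensities, log2(signal + 3.99) was computed, with a pseudocount at the 20th percentile of the table. This scale understates changes of dim probe sets. Of 22746 non-control probe sets, 15922 had a mean log2 above the 30th percentile and were kept. All 8 arrays entered 1 fit with 4 group means (limma 3.58.1, R 4.3.3, 4 residual degrees of freedom, empirical Bayes with intensity trend), with two-sided tests, Benjamini-Hochberg adjustment over all kept probe sets and a threshold of 0.05. The code was tested on simulated data. Permutations of 2 arrays against 2 were not used.

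The members and lists were chosen with earlier results of these data known. Values on every array are given for BGLU19, GSTU28, the ABA-glucose ester and lambda members, and up to 5 called members per family, contrast and direction whose arrays do not overlap. Where a family had no call against water, the 2 members with the smallest p are given, with up to 3 called genes of each other list. Signals of other members, which the rule does not ask for, are added so that each is accounted for.

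All 33 members matched RefSeq loci (TAIR10.1), used for names and neighbours only, since the array's genome build is not given in the sources used here. Promoter and protein sequences were not analysed here. Lists of zeta and theta transferases, peroxidases, vacuolar transporters, glucosinolate partners and the BGLU1 to BGLU11 clade held no named probe set. Correlations of deviations between arrays of the same letter ran from -0.08 to 0.06 for pairs with dry seed. Among the imbibed groups they were all positive, from 0.09 to 0.31. Letters A and B were not taken to pair samples in the main fit, and a replicate block was tried as an alternative.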

Additional observations from a re-analysis of the deposited data

How the results depend on the processing

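Tried alternatives were another pseudocount, filter, scaling or moderation, the letters A and B as a replicate block, each array left out in turn, and family members found through RefSeq synonyms. Of the values for single genes under alternatives, 896 kept their direction and side of the threshold, 15 became called, 44 lost their call and 10 changed sign. Scaling moved the median of all tested probe sets between water and dry seed from 0.15 to -0.03 (quantile), -0.35 (common median) and 0.93 (spike-in controls), and the share of calls that were higher from 56.8% to 50.8%, 38.5% and 83.2%. The spike-in controls themselves were brighter on dry than on imbibed arrays, as given above. Over all probe sets, 72 calls between 30 µM ABA and water became 202 with spike-in scaling, 2 without the intensity trend, 5 without 30 µM replicate A and 0 without either water array or 30 µM replicate B. With the replicate block the 72 calls became 135. In 3 µM ABA spike-in scaling gave 28 calls against 0. Under that scaling variances were moderated fully to the shared trend, so its p-values are small. For beta-glucosidases, lower calls rose from 1 to 2 in water and in 3 µM ABA against dry seed under quantile and common median scaling, adding BGLU16. For 30 µM ABA against dry seed, higher calls went from 4 to 2 under a common median. Lower calls went from 0 to 1 with pseudocount 16 (BGLU19), with no filter (BGLU45) and with quantile scaling (BGLU16), and to 2 under a common median. Leaving out arrays gave 0 to 1. Higher calls in 3 µM ABA went from 4 to 2 above the 50th percentile, which tested 4 of the 9, and to 7 with spike-in scaling. For transferases, lower calls fell from 2 to 1 above the 50th percentile in all 3 comparisons with dry seed, and in 3 µM ABA with spike-in scaling. Higher calls in 30 µM ABA rose from 3 to 5 with no filter or spike-in scaling, and in 3 µM ABA fell from 4 to 2 under a common median. Spike-in scaling gave 1 call each against water, BGLU19 at 30 µM and GSTU28 at 3 µM. Signs turned for BGLU15 between water and dry seed (0.55 with spike-in scaling, 0.26 without dry replicate A, 0.09 without water replicate B, -0.28 to 0.26 over left-out arrays) and between 30 µM ABA and dry seed (-0.22, common median). They turned for GSTU26 between 30 µM ABA and dry seed (-0.039 quantile, -0.14 common median) and between 3 µM ABA and water (0.24 spike-in, 0.10 without water replicate B, -0.13 to 0.10 over left-out arrays), for BGLU40 between 3 µM ABA and water (0.12 without 3 µM replicate B, -0.64 to 0.12 over left-out arrays) and for UGT71C5 (0.0050, spike-in). The causes were not tested. With the replicate block BGLU25 was called higher in water than in dry seed (log2 0.85), so 4 beta-glucosidases were, and higher than dry seed in 3 µM ABA (log2 1.01), where BGLU15 lost its call. Adding relatives named in RefSeq gave 4, 5 and 5 higher beta-glucosidases in water, 30 µM and 3 µM ABA against dry seed. Low signal kept 17 of 33 members out of the fit, and without the filter 0 were called against water.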
